A study of Mus musculus with 2 samples.

Results

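Cycling mesothelial cells were the cells of the infarcted mouse heart that carried both the transcripts of the serous lining and those of division. They were chosen by counts alone: at least 3 of the 8 mesothelial genes Msln, Upk3b, Upk1b, Lrrn4, Krt19, Krt8, Wt1 and Muc16 detected, under 30 UMIs (unique molecular identifiers, 1 for each captured transcript) of the complement genes C1qa, C1qb and C1qc per 10000, and at least 3 UMIs of Mki67, Top2a and Birc5 together. Of 22084 cells kept for quality, 223 met the rule, 49 of 10125 in the library named GFPhi and 174 of 11959 in the library named GFPlo. The comparison population, called non-cycling here, passed the same gates with 0 UMIs of the 3 proliferation genes and held 1486 cells, 371 in GFPhi and 1115 in GFPlo. A further 249 cells, 65 and 184, had 1 or 2 such UMIs and lay in between.

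Both libraries came from hearts of mice of genotype p16-2A-CreER;R26-mTmG after surgical myocardial infarction (MI), with tamoxifen by gavage on day 5 and harvest of the infarct zone on day 7. The p16-2A-CreER allele ties a tamoxifen-dependent Cre recombinase to p16, a product of the Cdkn2a locus, and in R26-mTmG the membrane tomato label gives way to membrane GFP once Cre has acted in a cell or its ancestor, so GFP records p16 promoter activity around the tamoxifen dose and not at harvest. Non-cardiomyocytes were sorted on GFP into GFPhi and GFPlo, which other label fields call GFP-positive and GFP-negative, and each fraction gave 1 library. All the cells therefore shared genotype, MI and tamoxifen, and hearts without MI or without tamoxifen were not part of the comparison. With 1 library per fraction no difference could be tested, every interval is an exact 95% interval that covers counting error only, and the sources used here do not give the number of mice behind each library.

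Mesothelium is the flat epithelium that covers the heart as epicardium and lines the pericardial cavity. Its cells carry keratins, mesothelin (Msln) and the transcription factor Wt1, secrete lubricants and complement proteins, and can divide and take on mesenchymal features after injury. A dividing cell first makes its DNA replication genes under control of E2F factors, falling in the S phase list here. Its mitotic genes, the G2/M list, come later. Many of these are controlled by the DREAM and FOXM1-MYBL2 complexes, which read the cell cycle homology region (CHR). CCAAT boxes often lie near the CHR and are a separate motif. Mki67 encodes the proliferation antigen Ki-67, Top2a the topoisomerase that untangles sister chromatids, and Birc5 the survivin subunit of the chromosomal passenger complex, so a gate on these 3 genes favours cells late in the cycle.

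The start regions of these genes are shown because the cells were chosen by them. Such motifs were also more frequent among the genes higher in the chosen cells than over all start regions. Each line gives the 150 bases before the annotated start, read 5′ to 3′ in the direction of the gene from RefSeq on GRCm38.p6, with matches in capitals to 3 motif sets: the CHR (TTTGAA or TTCGAA), the box CCAAT, and the E2F forms GCGGGAA as well as GGCGGGA as well as TTTGGCG. Both strands were searched, so the reverse complements are in capitals too, and no set shares a full motif with another. Mki67 lies at chr7:135716380-135716529 (minus strand), Top2a at chr11:99024190-99024339 (minus) and Birc5 at chr11:117849087-117849236 (plus). The late genes Cenpf (chr1:189688087-189688236, minus), Ube2c (chr2:164769779-164769928, plus) and Ccnb1 (chr13:100786487-100786636, minus) and the S phase genes Rrm2 (chr12:24708104-24708253, plus) and Tk1 (chr11:117826015-117826164, minus) follow.
Mki67: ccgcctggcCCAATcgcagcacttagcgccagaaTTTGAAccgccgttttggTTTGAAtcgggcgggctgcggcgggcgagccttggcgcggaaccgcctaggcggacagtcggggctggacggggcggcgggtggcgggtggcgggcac
Top2a: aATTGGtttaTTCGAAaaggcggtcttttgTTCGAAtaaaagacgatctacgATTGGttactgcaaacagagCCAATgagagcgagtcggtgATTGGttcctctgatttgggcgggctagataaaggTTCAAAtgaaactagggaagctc
Birc5: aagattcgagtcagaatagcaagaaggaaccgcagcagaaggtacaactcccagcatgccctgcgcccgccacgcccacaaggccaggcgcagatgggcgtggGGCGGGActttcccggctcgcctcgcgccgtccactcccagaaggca
Cenpf: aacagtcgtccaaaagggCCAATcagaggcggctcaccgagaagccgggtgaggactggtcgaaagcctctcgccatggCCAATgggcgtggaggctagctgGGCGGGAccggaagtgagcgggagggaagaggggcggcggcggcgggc
Ube2c: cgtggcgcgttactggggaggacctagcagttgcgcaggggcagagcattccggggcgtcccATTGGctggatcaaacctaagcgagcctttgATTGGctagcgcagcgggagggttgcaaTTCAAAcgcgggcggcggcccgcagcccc
Ccnb1: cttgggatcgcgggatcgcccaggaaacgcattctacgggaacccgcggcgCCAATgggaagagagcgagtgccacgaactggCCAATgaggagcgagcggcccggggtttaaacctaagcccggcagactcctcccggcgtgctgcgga
Rrm2: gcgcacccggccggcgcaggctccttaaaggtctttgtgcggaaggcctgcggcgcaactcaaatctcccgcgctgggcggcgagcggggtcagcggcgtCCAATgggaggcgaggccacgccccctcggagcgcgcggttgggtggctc
Tk1: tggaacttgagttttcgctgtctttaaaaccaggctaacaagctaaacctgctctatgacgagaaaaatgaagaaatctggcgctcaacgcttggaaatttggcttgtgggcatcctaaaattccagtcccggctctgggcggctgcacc
Mki67 held 2 CHR matches and 1 CCAAT match, Top2a 3 CHR and 4 CCAAT matches, and Ube2c 1 CHR and 2 CCAAT matches. Ccnb1, the B-type cyclin that drives entry into mitosis, held 2 CCAAT matches, and Cenpf, a kinetochore protein, held 2 CCAAT matches and 1 E2F match. Birc5 held 1 E2F match, Rrm2 1 CCAAT match, and Tk1 held none of these letters in this window. A match is a description of the letters and says nothing of which factor was bound.

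Over the whole table of 27025 start regions of the same length, CCAAT was present in 25.3%, the CHR in 9.89% and E2F in 9.20%. Among 40 G2/M genes with a region, CCAAT was present in 29 (72.5%) and the CHR in 10 (25%). E2F was present in 8 of these G2/M genes (20%). Among 35 S phase genes, E2F and CCAAT were each present in 18 (51.4%) and the CHR in 2 (5.71%). Of the 191 genes at least 2-fold higher in the cycling cells of both libraries that had a region, 20.9% held the CHR, 53.4% CCAAT and 27.2% E2F. The 54 genes at least 2-fold lower held them in 7.41%, 20.4% and 5.56%.

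The libraries held 10430 (GFPhi) and 12344 (GFPlo) barcodes with 91343549 and 104855204 UMIs, and 94 barcode sequences occurred in both, none of them in a cycling mesothelial cell. Median depth over kept cells was 6899 and 7712 UMIs. The cycling mesothelial cells were far deeper, with medians of 40687 UMIs and 6000 genes in GFPhi and 22146.5 UMIs and 4743.5 genes in GFPlo, against 27191 and 13837 UMIs in non-cycling mesothelial cells. Their mitochondrial shares were low, with medians of 1.39% and 1.82%. Depth thus moved with both the proliferation gate and the sort, and shares of cells with a UMI are also given after thinning every cell to 3000 UMIs.

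Among the genes that chose the cells were Msln (chr17:25748613-25754378 of mm10, minus strand) and Upk3b (chr5:136038496-136046487, plus strand), whose values are given as a description. Upk3b, a uroplakin of the mesothelial surface, had a UMI in 46 of 49 GFPhi cells (93.9%) and 161 of 174 GFPlo cells (92.5%), or 73.5% and 68.8% after thinning. Msln had one in 95.9% and 77.0% (79.6% and 52.6% thinned). In non-cycling macrophage-gated cells of GFPhi, which should lack both and had a median of 6509.5 UMIs, the shares were 2.42% for Upk3b and 3.57% for Msln. All 8 gate genes were found together in 75.5% of the GFPhi cells and 32.8% of the GFPlo cells. Outside the gate, Krt7 and Krt18, keratins of simple epithelia, stood at 486 and 387 CPM in the GFPhi members and 204 and 146 CPM in the GFPlo members, against 1.15 and 1.35 CPM in macrophage-gated cells of GFPhi. Mki67 (chr7:135689784-135716361, minus strand) was detected in 77.6% and 83.3% of the members, Top2a (chr11:98992943-99024189, minus) in 81.6% and 79.3%, and Birc5 (chr11:117849251-117855743, plus) in 95.9% and 94.3%, which the rule helped to set. The median cell held 19 UMIs of the 3 genes in GFPhi and 12 in GFPlo, with maxima of 87 and 66.

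Markers of other cell types were looked for in the same cells. The 10 macrophage markers summed to 811 CPM (UMIs of a gene summed over a group of cells, scaled to 1000000 UMIs of that group) in GFPhi and 98.4 CPM in GFPlo, with cell medians of 329 and 36.1 CPM and single cells of up to 9257 and 3746 CPM. Macrophage-gated cycling cells of GFPhi held 15674 CPM. The 10 fibroblast markers stood at 10935 and 12873 CPM, against 22117 CPM in cycling fibroblast-gated cells of GFPhi, and Comp was at 0 in GFPhi. Endothelial markers summed to 70.5 and 74.1 CPM, mural markers to 11.8 and 42.2, lymphocyte and neutrophil markers to 10.9 and 26.9, cardiomyocyte markers to 1.97 and 3.26, and haemoglobin to 5.92 and 0.753. Macrophage markers were spread at a low level over most GFPhi members, with a lower quartile of 239 CPM against 0 in GFPlo. Fibroblast markers had lower quartiles of 8834 and 8410 CPM over the members. In non-cycling mesothelial cells the fibroblast markers summed to 12352 and 17003 CPM. A few cells stood far above the rest in markers of other types, and no doublet caller was run. Leaving out the 15 members richest in markers of other types, the fibroblast list not among them, left 42 and 166 members. This alternative was added after seeing the data.

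Cycling cells made up 10.1% of mesothelial-gated cells in GFPhi (49 of 485, interval 7.57–13.1) and 11.8% in GFPlo (174 of 1473, 10.2–13.6). The intervals overlapped. After thinning to 3000 UMIs before the gates the shares were 3.99% (17 of 426, 2.34–6.31) and 3.95% (43 of 1088, 2.88–5.29), so the fractions stood closer together at matched depth and the level of either share depended on depth. Fibroblast-gated cells, the nearest stromal population, had 7.58% and 5.20% cycling cells, or 3.15% and 2.49% thinned. Macrophage-gated cells had 6.61% in GFPhi (4.24% thinned) and 7 of 55 cells in GFPlo. As a share of all kept cells, cycling mesothelial cells came to 0.484% in GFPhi and 1.45% in GFPlo, and mesothelial-gated cells as a whole 4.79% and 12.3%.

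Most cycling mesothelial cells were late in the cycle, as the gate favours. Summed S phase UMIs stood to summed G2/M UMIs at 0.429 (0.413–0.445) in GFPhi and 0.416 (0.406–0.426) in GFPlo, while non-cycling cells stood at 1.24 and 1.44 and the in-between cells at 1.48 and 1.42. Cycling fibroblast-gated cells stood at 0.280 and 0.371. The median cycling cell carried 17.3 and 16.8 S phase UMIs per 10000 against 3.64 and 4.09 in non-cycling cells, and 26.6 and 47.0 G2/M UMIs per 10000 against 2.85 and 3.05. The S phase list exceeded the G2/M list in 17 of 49 (34.7%) and 44 of 174 cells (25.3%).

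On the plot of the lists cell by cell, the line of equal values split the members into S-leading and G2/M-leading cells. In 15 GFPhi and 57 GFPlo members the 2 lists lay within 2-fold of each other. The line is a cut, and whether the members form separate groups was not tested. Against the 95th percentile of non-cycling cells (7.28 and 9.15 S phase UMIs and 5.70 and 6.85 G2/M UMIs per 10000), 39 of 49 and 124 of 174 members were above on both lists. Another 6 and 45 were above on G2/M alone and 0 and 2 on S phase alone. Only 4 members of GFPhi (8.16%) and 3 of GFPlo (1.72%) were under both. Of the in-between cells, 54 of 65 and 136 of 184 were under both, so 1 or 2 UMIs mostly fell on cells without the rest of the cell cycle genes. The edge of the gate was gradual: the 10 and 30 cells with 2 UMIs had medians of 3.57 and 7.54 G2/M UMIs per 10000, and the 8 and 21 cells with exactly 3 UMIs had 5.97 and 10.7. At the other edges, the member with the most C1q had 27.8 (GFPhi) and 12.1 (GFPlo) per 10000 and 1 GFPhi cell was lost by that limit, while 2 and 13 members had exactly 3 mesothelial genes and 5 and 20 otherwise fitting cells had 2.

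**Figure D1:**
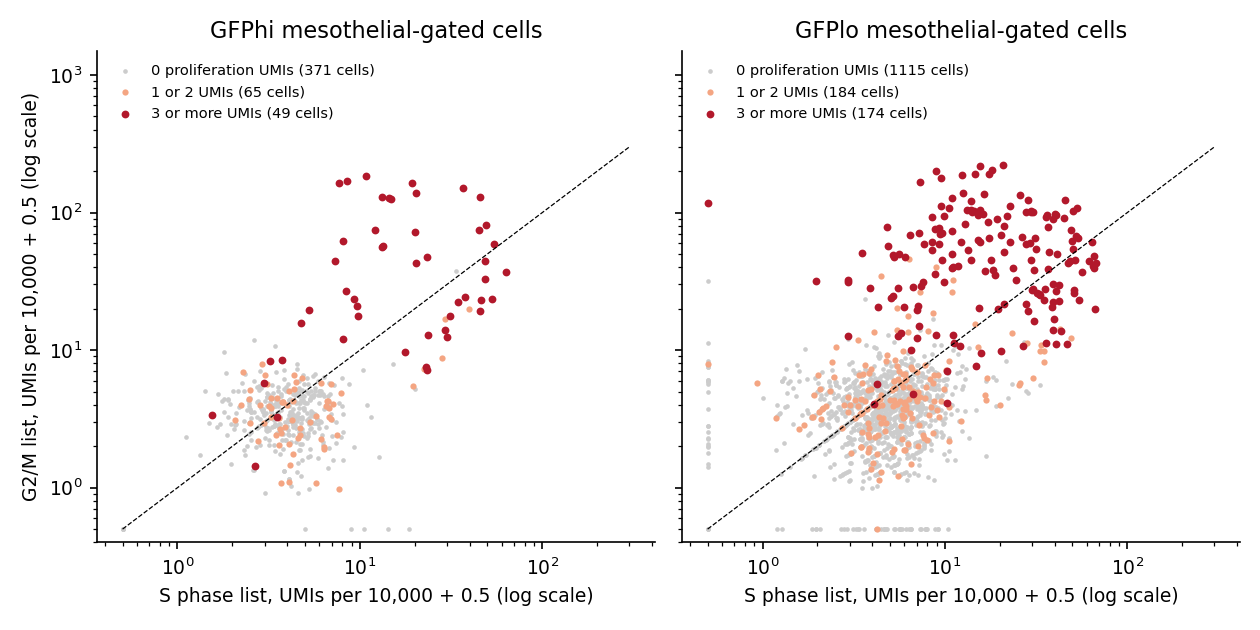
S phase against G2/M list UMIs per 10000 in each mesothelial-gated cell of GFPhi (left) and GFPlo (right), on log axes with 0.5 added; colours give 0, 1 or 2, and 3 or more UMIs of Mki67, Top2a and Birc5, and the dashed line marks equal values. Of the cycling cells (49 and 174), 39 and 124 exceed the 95th percentile of the non-cycling cells (371 and 1115) on both lists. Below the line lie 17 and 44 of the cycling cells.

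Within the members, genes of the 2 phases differed between S-leading and G2/M-leading cells. In GFPhi, Pcna, the clamp of the replication fork, stood at 247 CPM in the 17 S-leading cells and 98.8 CPM in the others, while Ccnb1 stood at 6.93 against 118 CPM and Cenpa, the centromeric histone, at 19.4 against 316 CPM. In GFPlo the same genes stood at 365 against 128, 11.2 against 113 and 42.1 against 405 CPM. The lists that sort the cells include these genes, so the separation is a description. Among genes outside the lists, C3 was low in S-leading and G2/M-leading cells alike. It stood at 1547 and 1225 CPM in GFPhi and 583 and 832 CPM in GFPlo, against 3564 and 2048 CPM in non-cycling cells. Btg2, an antiproliferative p53 target, was also low in both, at 617 and 493 CPM in GFPhi and 488 and 511 CPM in GFPlo.

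Cycling and non-cycling cells were then compared gene by gene. Since the cells were chosen on this contrast, the values describe them and nothing is tested. A gene was measured with at least 20 CPM in a group and 20 UMIs in each library, and was called when the CPM ratio passed 2-fold in the same direction in both libraries. Of 5664 measured genes, 260 (4.59%) were higher and 68 (1.20%) were lower. Among the 260, 86 (33.1%) belonged to the S phase, G2/M, histone or G1 lists. These lists held 30, 41, 17 and 8 of the 5664 measured genes. None of the 68 lower genes was in them, and with lists this small few would be.

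The mitotic genes stood highest. All 41 measured of the 46 G2/M genes were higher in both libraries, with median log2 ratios of 5.65 and 5.69 where all genes had medians of -0.04 and 0.01. Ube2c, the ubiquitin-conjugating enzyme of the anaphase-promoting complex, stood at 431 against 2.83 CPM in GFPhi and 494 against 1.85 CPM in GFPlo. Cenpf stood at 166 against 0.488 and 182 against 0.615 CPM, and Ccnb1 at 78.4 against 0.293 and 83.3 against 0.492 CPM. The non-cycling cells were thus nearly empty of these transcripts. The gate genes themselves reached 251 and 302 CPM for Birc5, 200 and 255 for Top2a and 107 and 165 for Mki67, against 0 by rule. Hmgb2, a chromatin protein abundant in dividing cells, was the most abundant of the list at 738 and 823 CPM, against 109 CPM in both non-cycling groups.

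The replication genes formed the second group. Of 43 S phase genes, 30 were measured and 29 were higher, with median log2 ratios of 2.68 and 2.55. Slbp, which binds histone mRNA, was the exception at 2.00-fold and 1.56-fold. Rrm2, the regulated subunit of ribonucleotide reductase, stood at 105 against 1.27 CPM in GFPhi and 102 against 2.22 CPM in GFPlo. Tk1, thymidine kinase, stood at 141 against 1.76 and 142 against 3.20 CPM, and Pcna at 151 against 41.1 and 197 against 49.4 CPM. Pcna was thus found in non-cycling mesothelial cells, where Rrm2 and Tk1 were scarce. Of 19 histone and chromatin genes, 15 of 17 measured were higher. H2afz, a replacement histone, stood at 1553 against 371 and 1667 against 385 CPM. Replication-dependent histone genes are near-identical copies, most of their mRNA lacks a poly(A) tail, and their single values are uncertain.

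Few genes that start the cycle passed 2-fold. Of 21 G1 cyclins, cyclin-dependent kinases and E2F genes, 8 were measured and 1 was higher, Tfdp1, the E2F partner, at 2.14-fold and 2.30-fold. Cdk4 stood at 275 against 171 CPM in GFPhi and 343 against 212 CPM in GFPlo. Cyclin D genes went different ways, with Ccnd1 at ratios of 1.10 and 2.06 and Ccnd2 at 0.41 and 0.76. The list's median log2 ratios were 0.30 and 0.28.

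Genes that hold the cycle back were mixed. Of 23 cyclin-dependent kinase inhibitors, p53 targets and senescence genes, 19 were measured, 2 were higher and 1 was lower, with median log2 ratios of -0.53 and -0.22. The 2 higher genes were Cdkn2d, the inhibitor p19Ink4d, at 5.72-fold and 5.66-fold, and Cdkn3, a phosphatase of cyclin-dependent kinases, at 113-fold and 62.0-fold. Btg2 (chr1:134075170-134079120, minus strand) was the 1 lower gene, at 537 against 1238 CPM in GFPhi (2.30-fold lower) and 504 against 1200 CPM in GFPlo (2.38-fold lower). Cdkn1a (chr17:29090976-29100727, plus strand), the p53-induced inhibitor p21, stood at 206 against 577 CPM in GFPhi, a ratio of 0.36 (0.322–0.394), and at 84.6 against 152.7 CPM in GFPlo, a ratio of 0.55 (0.493–0.621). A single GFPhi cell held 36.0% of the members' Cdkn1a UMIs, and without it the GFPhi ratio was 0.23. With the top 5% of cells left out of both groups the ratios were 0.16 in GFPhi and 0.85 in GFPlo. In GFPlo a larger share of cycling than of non-cycling cells had a Cdkn1a UMI, 47.7% against 32.6%, or 22.0% against 16.4% thinned. In GFPhi the shares were 65.3% against 60.1%, or 24.5% against 40.1% thinned.

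Cdkn2a (chr4:89274471-89294653, minus strand), whose promoter activity the reporter was built to record, was sparse. It had 10 UMIs in 6 of 49 cycling GFPhi cells (4.93 CPM) against 2.25 CPM in non-cycling cells, a ratio of 2.20 whose interval of 0.933–4.80 spans 1. In GFPlo it had 44 UMIs in 27 of 174 cells (11 CPM) against 5.23 CPM, a ratio of 2.11 (1.43–3.07). The UMIs come from transcript 3′ ends and do not separate p16 from p19Arf, which share them. Shares of cells with a UMI were 12.2% in GFPhi cycling cells and 4.04% in non-cycling cells, or 4.08% and 1.10% thinned, each near the level of a few UMIs. Cdkn2b, the neighbouring p15 gene, had ratios of 1.17 and 0.94. The mGFP transcript stood at 32.6 against 29.98 CPM in GFPhi (1.09) and 11.8 against 15.1 CPM in GFPlo (0.78), and may include unrecombined reporter. CreERT2 had a UMI in 0 of 49 GFPhi and 0 of 174 GFPlo members, which by the floor of 3 counts allows shares of up to 6.12% and 1.72% of cells with a UMI.

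**Figure D2:**
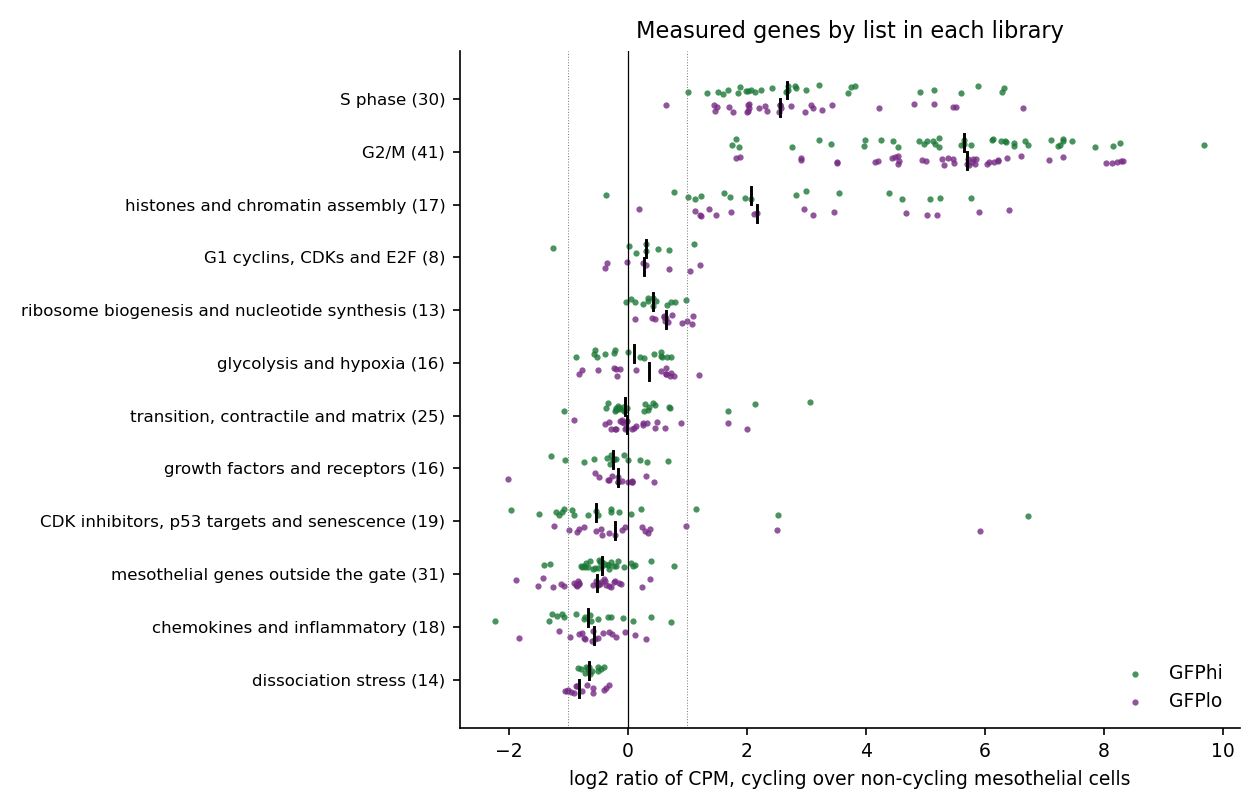
Log2 ratio of CPM, cycling over non-cycling mesothelial cells, for each measured gene of 12 lists (number measured in brackets) in GFPhi (green) and GFPlo (purple); bars are list medians, the solid line is no difference and dotted lines mark 2-fold. G2/M genes (medians 5.65 and 5.69) and S phase genes (2.68 and 2.55) lie to the right, and every dissociation stress gene lies left of 0 (-0.65 and -0.81).

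Few mesothelial genes passed 2-fold. Of 35 mesothelial genes outside the gate, 31 were measured, 0 were higher and 2 were lower, C3 and Prg4. Their median log2 ratios were -0.44 and -0.52, and 5 of 31 in GFPhi and 2 of 31 in GFPlo had ratios above 1. C3 (chr17:57203970-57228136, minus strand), the central complement protein, stood at 1340 against 3564 CPM in GFPhi (2.66-fold lower) and 759 against 2048 CPM in GFPlo (2.70-fold lower). Prg4, the lubricant lubricin, stood at 241 against 595 and 107 against 395 CPM. Among the gate genes, which the rule used, Msln stood at 1079 against 1665 CPM and 440 against 798 CPM, and Muc16 had ratios of 0.60 and 0.51. Krt8 went the other way, at ratios of 1.42 and 1.4. The gate genes therefore did not lie on 1 side.

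Further genes at least 2-fold lower in both libraries included secreted proteins. Angptl7, a secreted angiopoietin-like protein, stood at 73.5 against 251 CPM in GFPhi and 76.1 against 270 CPM in GFPlo, and Gas6, the ligand of the TAM receptors, was 3.20-fold and 3.06-fold lower. Slurp1, a small secreted protein of the surface subset, stood at 99.1 against 287 and 29.1 against 93.7 CPM. With the top 5% of cells left out of both groups it was 1.71-fold and 3.10-fold lower. In GFPhi it had a UMI in 44.9% of cycling and 40.2% of non-cycling cells, or 14.3% and 21.3% thinned. Of the 26 chemokine and inflammatory genes, 18 were measured, 0 were higher and 1 was lower, C4b at 2.30-fold and 3.54-fold, with list medians of -0.68 and -0.57. Further complement genes, named after their values were seen, were C1ra (2.34-fold and 2.05-fold lower) and its near copy C1rb (2.54 and 2.04), while Cfb, at 1.65 and 2.24, was not called. Interferon response genes, also named afterwards, included Ifit1 (3.31-fold and 2.28-fold lower), Ifit3 (3.86 and 2.30) and Irf1 (2.37 and 2.27). Txnip, a thioredoxin-binding protein whose transcript follows glucose, was 2.22-fold and 3.02-fold lower. Neither group was a list, and no enrichment of either was tested. Ccl8, the chemokine in the study's title, had 28 UMIs in 10 GFPhi members (13.8 CPM) and 0 in GFPlo, against 411 CPM in macrophage-gated cells of GFPhi.

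Of 14 dissociation stress genes, 0 were called in both libraries. Their medians were -0.65 and -0.81, and none of the 14 had a ratio above 1 in either library. Fos stood at 1451 against 2306 CPM in GFPhi and 1470 against 2501 CPM in GFPlo. These immediate early genes are known to be induced by tissue digestion, and the part of digestion in these values was not tested.

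Of 32 transition, contractile and matrix genes, 25 were measured and 2 were called, Acta2 and Tnc, both higher. The list medians of -0.05 and -0.02 lay beside those of all genes, -0.04 and 0.01. Acta2, smooth muscle actin (chr19:34241090-34255590, minus strand) stood at 428 against 133 CPM in GFPhi, a ratio of 3.21 (2.94–3.50), and at 820 against 257 CPM in GFPlo, a ratio of 3.19 (3.05–3.34). It had a UMI in 35 of 49 (71.4%) and 129 of 174 (74.1%) cycling cells and in 46.6% and 48.9% of non-cycling cells. Thinned, the shares were 32.7% and 46.8% against 12.4% and 22.3%, and macrophage-gated cells of GFPhi had 3.89% before thinning. A larger share of the cycling cells thus carried Acta2 at matched depth, but the size of the GFPhi ratio rested on few cells. In GFPhi 2 cells held 67.1% of the UMIs and the ratio without them was 1.11 (0.97–1.26), while in GFPlo it was 2.95 without its 2 highest cells. With the top 5% of cells left out of cycling and non-cycling cells alike, the ratios were 2.58 and 6.34. These settings were chosen after seeing the data. Tagln, its companion transgelin, stood at 456 against 104 CPM in GFPhi and 432 against 232 CPM in GFPlo, so it was not called in both, and was 2.09-fold and 1.58-fold without its 2 highest cells. Tnc, the injury matrix protein tenascin C, stood at 116 against 13.9 and 86.9 against 21.8 CPM, but its UMIs lay in 8 of 49 and 45 of 174 cells, and 2 cells held 90.7% of them in GFPhi and 43.9% in GFPlo. Without these cycling cells the ratios were 0.81 (0.49–1.28) and 2.29, with the non-cycling side unchanged. On that side 1 GFPhi cell held 78 of 142 UMIs. With the top 5% of cells left out of both groups the ratios were 60.5 and 6.59, the GFPhi value being 6.30 against 0.104 CPM. The size of the GFPhi ratio thus rested on few cells on both sides.

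Mural markers stood at a summed 11.8 and 42.2 CPM in the members, with Rgs5 and Abcc9 at 0 in GFPhi. Cytoskeletal genes, picked after their values were seen and forming no list, included Stmn1, the microtubule destabiliser stathmin, at 606 against 89.8 CPM in GFPhi and 665 against 75.9 CPM in GFPlo. Tubb6, a beta tubulin, stood at 177 against 23.0 and 244 against 48.9 CPM. Tuba1b (3.73-fold and 4.09-fold), Tuba1c (4.18 and 4.56) and Tubb5 (2.55 and 2.68) were higher as well, with tubulin genes being near copies whose reads can be shared. Lmnb1, lamin B1, was 3.92-fold and 4.52-fold higher, and Ezh2, the methyltransferase of Polycomb, 4.49-fold and 3.69-fold.

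Few growth and metabolic genes passed 2-fold. Of 35 growth factors and receptors, 16 were measured, 0 were higher and 1 was lower, Fgf1, at 2.46-fold and 4.05-fold. Of 12 retinoic acid genes, 8 were measured and 1 was called. This was Aldh1a3, a retinaldehyde dehydrogenase, at 28.6 against 12.3 CPM and 35.1 against 8.92 CPM. In GFPhi 1 cycling cell held 60.3% of the members' UMIs, and the ratio without it was 0.94 (0.58–1.48). On the non-cycling side of GFPhi 1 cell held 80 of 126 UMIs and was kept. Of 25 ribosome biogenesis and nucleotide synthesis genes, 13 were measured and 0 called, with 12 and 13 of the 13 ratios above 1 and medians of 0.42 and 0.63. Srm, spermidine synthase, had ratios of 1.96 and 2.12 and Nop56, a nucleolar protein, 1.72 and 2.14. Of 22 glycolysis and hypoxia genes 16 were measured and 0 called, with medians of 0.10 and 0.35, and Gapdh stood at 594 against 437 and 668 against 408 CPM.

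Genes of both mesothelial subsets were found among the members. Of 10 genes of the surface subset (Krt14, Slurp1 and others) 4 were measured, with medians of 0.04 and -0.37, and of 9 of the epicardial subset (Pnoc, Enpp2, Wnt4 and others) 8 were measured, with medians of -0.44 and -0.43. Slurp1 or Krt14 was detected in 37 of 49 GFPhi members (75.5%, thinned 42.9%) and 87 of 174 GFPlo members (50.0%, thinned 28.9%). In non-cycling cells the thinned shares were 40.6% and 22.3%. Enpp2, Pnoc or Wnt4 was detected in 75.5% (thinned 14.3%) and 86.8% (thinned 50.9%) of the members. In non-cycling cells the thinned shares were 27.6% and 47.5%. Macrophage-gated cells of GFPhi had 1.14% and 0.596%. At full depth 51.0% and 40.2% of the members held genes of both sets, against 46.9% and 22.5% of the non-cycling cells, which were shallower.

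Depth was part of the contrast, so the cycling cells were also set against non-cycling cells at or above the lower quartile of the members' depth (33414 and 15594.5 UMIs). These 110 and 418 cells had medians of 41552 and 19617.5 UMIs. Against them 245 genes were higher and 24 lower in both libraries, so the higher genes were nearly as many while the lower ones were under 68. S phase and G2/M medians were 2.56 and 2.39, and 5.63 and 5.74. The mesothelial median was -0.23 in GFPhi and -0.46 in GFPlo, and the dissociation stress median -0.53 and -0.64.

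Levels were graded along the number of proliferation UMIs. C3 stood at 3564, 2975, 1390 and 1313 CPM in GFPhi cells with 0, 1 or 2, 3 to 9, and 10 or more such UMIs (371, 65, 17 and 32 cells), and at 2048, 1466, 783 and 748 CPM in GFPlo (1115, 184, 70 and 104 cells). Btg2 stood at 1238, 1172, 708 and 446 CPM and at 1200, 978, 616 and 450 CPM. Both genes were lower with each step in both libraries, and the largest step for C3 lay between the in-between cells and the members. Without the highest cell of each bin, C3 stood at 1162 and 1254 CPM in the last 2 bins of GFPhi. In GFPlo it then stood at 714 and 719 CPM. The order of these 2 bins for C3 thus rested on single cells in both libraries. Acta2 went up with each step in GFPlo, from 257 to 469, 677 and 890 CPM, but in GFPhi it was highest, at 570 CPM, in the cells with 3 to 9. Cdkn1a in GFPhi stood at 577, 547, 430 and 86.2 CPM, and in GFPlo at 153, 131, 48.5 and 102 CPM. The 17 GFPhi cells with 3 to 9 are few. Without the highest cell of each bin, Acta2 in GFPhi stood at 117 and 163 CPM in the last 2 bins, and Cdkn1a at 230.1 and 71.9 CPM.

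**Figure D3:**
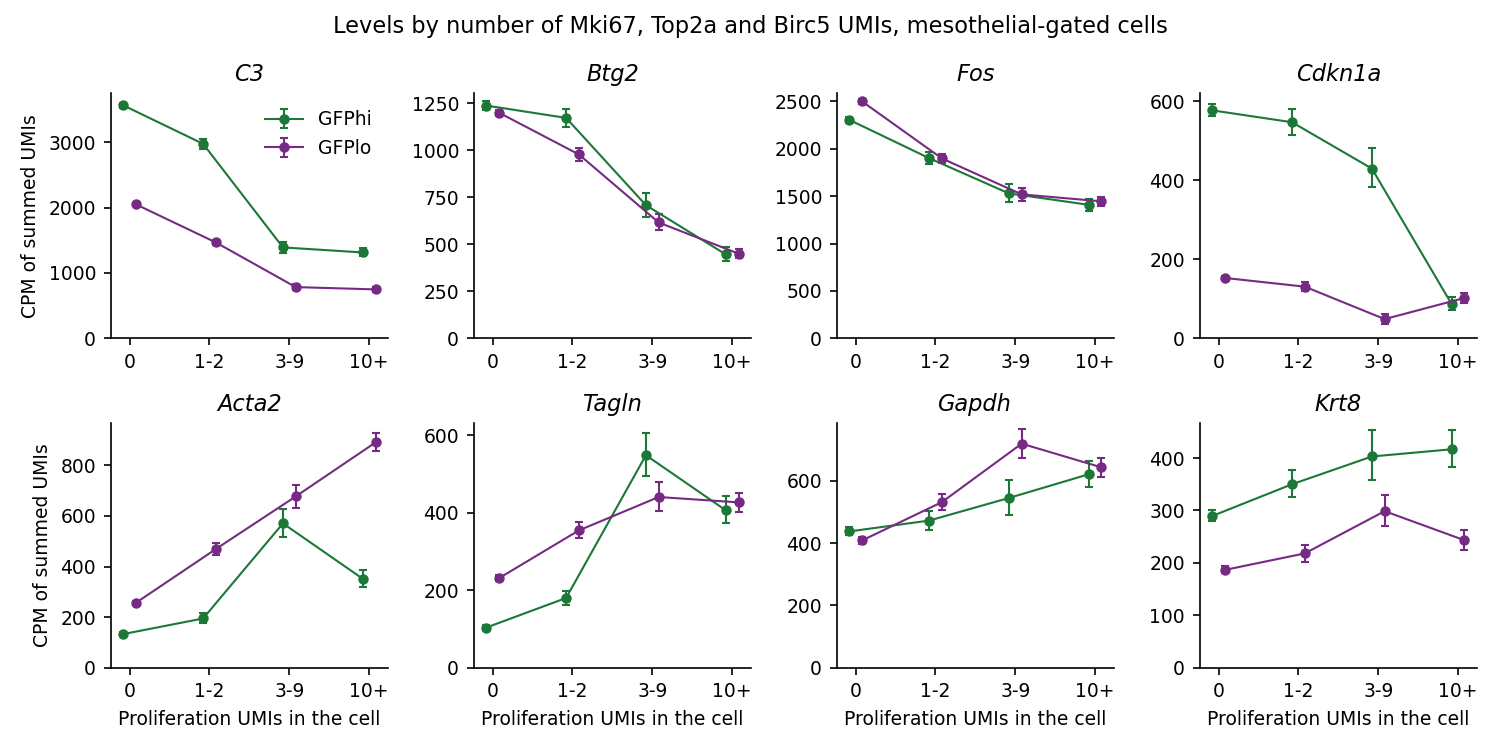
CPM of UMIs summed over mesothelial-gated cells with 0, 1 to 2, 3 to 9 and 10 or more UMIs of Mki67, Top2a and Birc5, for 8 genes in GFPhi (green) and GFPlo (purple); bars are exact Poisson intervals for counting error. C3 and Btg2 were lower at each step in both libraries, but for C3 the order of the last 2 bins rested on single cells. Acta2 went up at each step in GFPlo and was highest at 3 to 9 in GFPhi.

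The same contrast was made in other gated cells, each value being a description. Btg2 had cycling over non-cycling ratios of 0.40 and 0.45 in fibroblast-gated cells of GFPhi and GFPlo and 0.47 in macrophage-gated cells of GFPhi, against 0.43 and 0.42 in mesothelial cells. Gas6 had 0.35 and 0.32 in fibroblast-gated cells. Acta2 had 2.87 and 2.53 in fibroblast-gated cells, and Cdkn2a 3.71 and 3.24, and 4.34 in macrophage-gated cells. C3 stood at ratios of 0.29 and 0.61 in fibroblast-gated cells, which held 316 and 218 CPM when non-cycling, under the mesothelial level. These genes lay on the same side of 1 in fibroblast-gated as in mesothelial cells, but others did not. In GFPlo fibroblast-gated cells Prg4 had a ratio of 1.38 (0.27 in mesothelial cells), Abcb1b, a drug efflux transporter, 2.03 (0.42) and Cxcl13, a B cell chemokine, 2.66 (0.28). The size of the mesothelial Cxcl13 ratio rested on few cells. In GFPlo 1 cell held 87.7% of the members' UMIs, and the ratio without it was 0.034. On the non-cycling side 1 cell held 505 of 962 UMIs. A difference between the cell types was not tested.

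Genes whose counts ran most like the gate genes were sought over the 1709 cycling and non-cycling mesothelial cells. By Pearson correlation of log counts per 10000 with the sum of the 3 gate genes, Pclaf, a Pcna-binding factor, led at 0.874, before Ube2c (0.868), Ccna2 (0.865), Cdca8 (0.854), Cdca3 (0.854), Prc1 (0.827), Tpx2 (0.824), Spc24 (0.808), Cenpf (0.807) and Nusap1 (0.802). The cells share 2 libraries and were chosen at both ends of the gate, so these values only rank genes.

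The sort fraction was the contrast the rule did not use. Of 6048 genes measured in the cycling cells, 125 (2.07%) were at least 2-fold higher and 207 (3.42%) at least 2-fold lower in GFPhi than in GFPlo. The median log2 ratio of all genes was -0.16. In non-cycling mesothelial cells, 51 of the 125 (40.8%) also passed 2-fold and 119 lay on the same side, as did 81 (39.1%) and 201 of the 207. The called genes were thus mostly on the same side in non-cycling cells, with both comparisons drawn from the same 2 libraries. The same shares over all 6048 measured genes are not given here, so these counts are a description. Whether the differences in cycling cells departed from those in non-cycling cells was not tested.

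Few cell cycle genes passed 2-fold between the fractions. Of 43 measured G2/M genes 0 were called, with a median of -0.27, and of 36 S phase genes 1 was lower. Mki67 had a GFPhi over GFPlo ratio of 0.64, Top2a 0.78 and Birc5 0.83. The 10 genes highest in GFPhi by the nearer bound were all macrophage genes: Ms4a7, Ctss, Fcer1g, Wfdc17, Pf4, Gpnmb, Il1b, Lyz2, Cd300c2 and Ms4a6c. Lyz2, lysozyme, stood at 366 CPM in GFPhi and 24.4 CPM in GFPlo, and Ctss, cathepsin S, at 171 and 7.03 CPM. Macrophage-gated cells made up 7621 of 10125 cells of GFPhi, and the non-cycling ones held 12555 CPM of Lyz2. For each of the 10 genes, 1 member of GFPhi gave 24.4% to 52.4% of the UMIs, and 27 of the 125 genes were over 10-fold higher in macrophage-gated cells than in the members. The part of macrophage RNA in these values was not tested. Of the macrophage list 5 of 6 measured members were higher, with a median of 2.83 (1.98 in non-cycling cells).

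Of 30 measured mesothelial genes outside the gate, 6 were higher and 0 lower, with a median of 0.64 against 0.43 in non-cycling cells. Krt7, a simple epithelial keratin, stood at 486 and 204 CPM (2.39-fold, 1.80-fold when non-cycling), Krt18 was 2.65-fold higher and Slurp1 3.40-fold, although without cells holding genes of other types the log2 ratio of Slurp1 was -0.03. Slpi, an antiprotease, stood at 1202 and 368 CPM, and Mt1, a metallothionein, at 3121 and 940 CPM, 3.32-fold against 2.18-fold in non-cycling cells. Msln stood at 1079 and 440 CPM and Upk3b at 983 and 730 CPM. Cdkn1a was 2.43-fold higher (2.10–2.82) against 3.78-fold in non-cycling cells, but with cells holding genes of other types left out its log2 ratio was -0.61, with 25 GFPhi and 70 GFPlo members kept. mGFP was 2.76-fold higher (1.87–4.10), in the direction of the sort. Cdkn2a went the other way, with a lower CPM in the GFPhi than in the GFPlo members. It had 10 UMIs in 6 of 49 GFPhi members and 44 UMIs in 27 of 174 GFPlo members. In non-cycling cells it stood at 2.25 CPM in GFPhi and 5.23 CPM in GFPlo. These counts were few, the side turned with thinned cells, and the difference was not tested.

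Of 8 measured fibroblast markers, 5 were lower in the GFPhi members and 0 higher, with a median of -1.20 (-0.99 in non-cycling cells), and of 29 transition, contractile and matrix genes 7 were lower and 0 higher, with a median of -0.37. Postn, the matricellular periostin, stood at 19.7 CPM in GFPhi and 176 CPM in GFPlo, 8.91-fold lower, against 3.90-fold in non-cycling cells. Enpp2, the autotaxin gene of the epicardial subset, stood at 11.3 and 135 CPM, 11.9-fold lower against 4.29-fold. Lum, a small proteoglycan, was 6.60-fold lower. Acta2 was 1.92-fold lower in cycling and 1.93-fold lower in non-cycling cells. At the foot of the ranking, Igha, Jchain and Mzb1 of plasma cells came from 1 GFPlo cell, which held 99.2%, 97.5% and 99.2% of their UMIs.

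**Figure D4:**
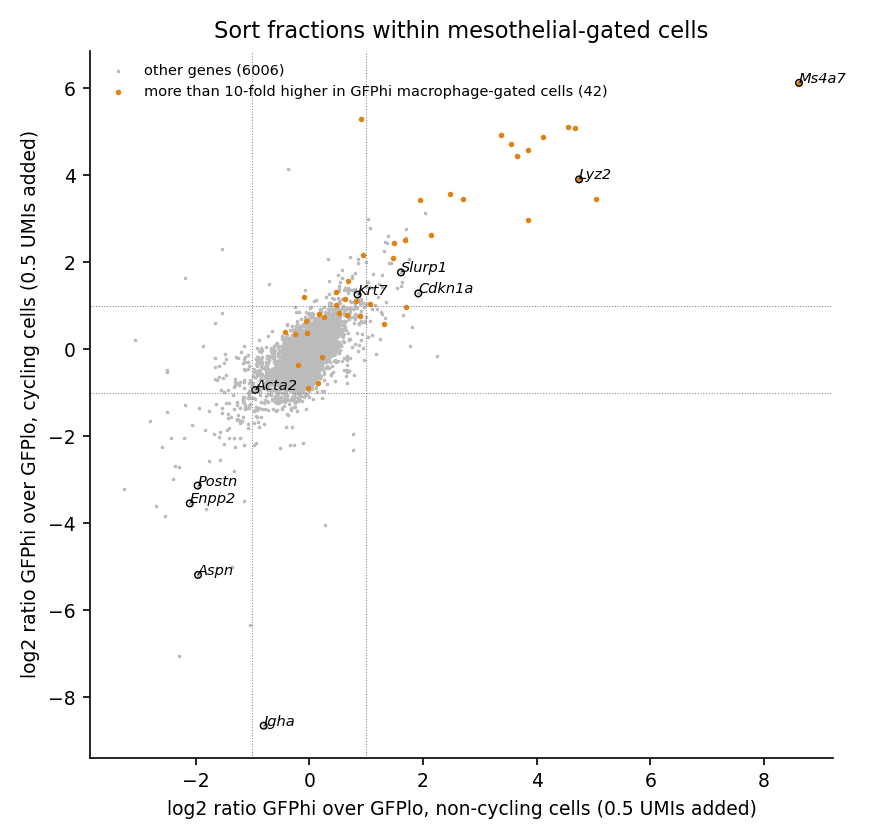
Log2 ratio of CPM, GFPhi over GFPlo, in non-cycling (x axis) and cycling (y axis) mesothelial cells for 6048 measured genes, with 0.5 UMIs added; orange points are 42 genes more than 10-fold higher in macrophage-gated cells of GFPhi and dotted lines mark 2-fold. Of the 125 genes above the upper line 119 lie on the same side of 0 in non-cycling cells, with the share over all measured genes not given. Postn and Enpp2 lie low in both.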

How the data were processed

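The data were 2 droplet 3′ single-cell RNA libraries of sorted cardiac non-cardiomyocytes, 1 per sort fraction, each a deposited table of raw UMI counts per gene and barcode (32287 features, mm10 genes plus mGFP and CreERT2). The counts were whole numbers, used as the authors deposited them. Per the labels the kit was SeekOne, and 10x Genomics in a further field. For the aligner, the counting program and the calling of cells, the sources used here give no name. The build is mm10, per the submitters' processing notes.

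Barcodes were kept from 300 genes and 500 UMIs upward if mitochondrial genes took no more than 20% of UMIs. Fibroblast-gated cells had at least 3 of Pdgfra, Dpt, Col1a1, Dcn and Lum, and macrophage-gated cells at least 30 C1q UMIs per 10000, each with under 3 mesothelial gate genes. The members and gene lists were chosen with earlier results of these data known. UMIs were summed over cells and scaled to CPM. Ratios have exact conditional intervals, levels exact Poisson and shares exact Clopper-Pearson intervals, all at 95%, and with 1 library per group they cover counting error only and no p-value was computed. The floor for a count of 0 was 3 UMIs per group of cells. No doublet caller was run, and cells with genes of other types were left out as an alternative instead. Genes were named by rule: the gate genes, Cdkn2a, Cdkn2b, Cdkn1a, mGFP, CreERT2 and Ccl8, the 10 furthest apart in each direction by the nearer interval bound, 2 to 4 examples per list, and the 10 most correlated with the gate genes; further names were picked from their values, and some genes are not reported here. The ratio script was tested on simulated data. Alternatives covered the gates, thinning to 3000 UMIs, scaling, low values, depth of the comparison cells and the fold. Gene positions came from GENCODE vM21 and start regions from RefSeq (GRCm38.p6), first listed start per gene. Python 3.11.15 with numpy 2.4.6, scipy 1.17.1 and pandas 2.3.3 was used.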

Additional observations from a re-analysis of the deposited data

Results flagged for a closer look

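Of 273 measured list genes considered here, 6 had cycling over non-cycling ratios on opposite sides of 1 in the libraries. Their counting intervals excluded 1 in both, and the difference between the libraries was not tested. The same count over all 5664 measured genes is not given here, so the 6 only describe these lists. Hist1h1c, a linker histone, stood at 0.769 in GFPhi and 1.13 in GFPlo, and Phlda3, a p53 target, at 0.69 and 1.18. Dmkn, an epithelial secreted protein, went the other way, at 1.07 and 0.775, as did the chemokine Cxcl2 at 1.31 and 0.749. The matrix regulators Timp1 (0.778 and 1.2) and Mmp14 (0.894 and 1.09) had ratios below 1 in GFPhi and above 1 in GFPlo.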

How the results depend on the processing

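Cycling shares were 3.99% (GFPhi) and 3.95% (GFPlo) with thinned cells, and in GFPlo 8.62% with at least 6 proliferation UMIs and 9.41% without cells holding genes of other types. The S to G2/M ratio was 0.394 (GFPhi) and 0.388 (GFPlo) with 6 UMIs, 0.245 and 0.262 thinned, and 0.389 in GFPlo without cells holding genes of other types. Genes higher in cycling cells numbered 472 with no CPM minimum and 473 at 1.5-fold. Genes lower numbered 106 without cells holding genes of other types, 227 thinned, 263 with no CPM minimum, 24 against deeper cells and 328 at 1.5-fold. Between fractions, genes higher in GFPhi numbered 74 without cells holding genes of other types, 60 thinned, 295 with no CPM minimum and 332 at 1.5-fold, and genes lower 118 thinned, 763 with no CPM minimum and 832 at 1.5-fold. The causes were not tested beyond the fewer cells these alternatives kept: 95 without genes of other types and 60 thinned, of 223. The share of calls that were higher in cycling cells was 79.3%, and 91.1% against deeper cells, 73.8% without genes of other types and 44.9% thinned; between fractions it was 37.7%, and 54.0% with median-of-ratios scaling and 23.8% without genes of other types. Reversed GFPhi over GFPlo log2 ratios were those of Cdkn1a, at -0.61 without genes of other types and -2.36 thinned, Cdkn2a, at 1.34 thinned, and Slurp1, at -0.028 without genes of other types. Some cycling over non-cycling log2 ratios reversed with the highest cycling cell left out and the non-cycling side unchanged. They were those of Aldh1a3 (-0.084), H19 (-1.09) and Ly6d (-1.53) in GFPhi and H19 in GFPlo (-0.46). With the 2 highest cycling cells left out, that of Tnc in GFPhi also reversed (-0.30). The intervals of all these values spanned no difference. These settings were added after seeing the data. A setting added after seeing the data left out the 15 members richest in other types' markers, and non-cycling cells past the same limits. Under it, 268 genes were higher and 69 lower in cycling cells, and Acta2 in GFPhi had a log2 ratio of 1.10. No paired analysis was possible because each group has 1 library and no test was made.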
